A study of Mus musculus with 12 samples.

Results

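The TRIM genes are the 68 genes of the count table whose symbol is Trim followed by a number and at most 2 lower-case letters, with pseudogenes left out, of 56093 entries in all. A count was listed for 61 of them in at least 1 library, and 44 passed the filter on low counts and were tested among 14089 genes. The RNA came from B16, a line of mouse melanoma cells, which grew in medium with serum and carried a transfected short hairpin RNA. The 4 groups of 3 libraries were shSdc1 with IFNγ at 10 ng/ml for 24 h, shRFP with IFNγ at the same dose and time, shSdc1 unstimulated and shRFP unstimulated. The shSdc1 hairpin targets Sdc1, which encodes the heparan sulfate proteoglycan syndecan-1, and shRFP is the control hairpin. All groups share the cell line and carry a hairpin, and cells without one are not analysed here. How many hairpins or clones stand behind a group, and whether its 3 libraries are separate cultures, is not given in the sources used here. The p-values thus speak of the spread among these libraries alone, and that spread may be technical.

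TRIM proteins carry a RING finger, B-boxes and a coiled coil, and most are ubiquitin ligases whose C-terminal part decides what they bind. In the immune response some bind viral capsids or antibody-coated pathogens in the cytosol, and others place ubiquitin on sensors of foreign nucleic acid and on the adaptors and kinases below them. Further members repress chromatin, bind microtubules or act in muscle, neurons or the germ line. Interferons induce many members of the antiviral branch. The gamma-activated site and the interferon-stimulated response element are short promoter elements known from interferon-induced genes, and the second is bound by interferon regulatory factors.

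Promoter sequences are shown because the members that moved most with IFNγ shared a short element near their start sites. The core of the interferon-stimulated response element, GAAA followed by any 2 bases and GAAA, was searched on both strands of RefSeq promoters (build GRCm38.p6, 250 bases before to 50 bases after each start site), and overlapping matches were counted. RefSeq promoters were found for 53 of the 68 members. The core stood in 8 of the 10 members that were higher with IFNγ in control cells and in 1 of the 23 other tested members with a promoter, Trim2. Among these 8, Trim12a, Trim5, Trim30d and Trim34a passed the filter on low counts only through libraries with IFNγ. Several of the 8 also have closely related promoters, so the counts are a description. Over the 53 members with a promoter it stood in 9, against 3.99% of all 27025 genes in the table (3.44% of the 32851 promoters). Trim25 and Trim56 were the 2 members higher with IFNγ whose promoter windows did not hold these letters. The core TTCNNNGAA of the gamma-activated site was in 0 of those 10 and in 6 of the 53, against 9.55% of all genes (8.3% of promoters). The stretches below run 5′ to 3′ along the gene's strand, with the core, on either strand, in capitals. In Trim21 and Trim26 the capitals span 2 overlapping cores.
Trim12a: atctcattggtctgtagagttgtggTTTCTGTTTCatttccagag
Trim5: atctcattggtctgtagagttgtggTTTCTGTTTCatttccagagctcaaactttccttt
Trim12c: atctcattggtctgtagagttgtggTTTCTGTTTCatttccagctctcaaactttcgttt
Trim30a: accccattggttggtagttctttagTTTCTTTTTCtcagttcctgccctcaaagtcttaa
Trim30d: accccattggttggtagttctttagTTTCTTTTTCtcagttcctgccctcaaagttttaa
Trim34a: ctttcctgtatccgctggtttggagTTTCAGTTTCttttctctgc
Trim21: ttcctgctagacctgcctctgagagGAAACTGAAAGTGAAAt
Trim26: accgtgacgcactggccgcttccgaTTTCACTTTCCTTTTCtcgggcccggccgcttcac

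These stretches lie at chr7:104315466-104315510 on the minus strand for Trim12a, at chr7:104288121-104288180 on the minus strand for Trim5 and at chr7:104353344-104353403 on the minus strand for Trim12c. Those of Trim30a and Trim30d lie at chr7:104465195-104465254 and chr7:104507856-104507915, both on the minus strand. Trim34a has chr7:104244442-104244486 on the plus strand, Trim21 has chr7:102565453-102565494 on the minus strand, and Trim26 has chr17:36836961-36837020 on the plus strand. The Trim12a and Trim5 stretches were identical over the 45 bases compared. Those of Trim30a and Trim30d matched at 59 of 60 bases, so matches in related promoters do not count as independent. A second RefSeq start site of Trim30a also held the core. The RefSeq start sites shown for Trim12a and Trim5 fall outside the gene's transcripts in GENCODE M21.

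**Figure D1:**
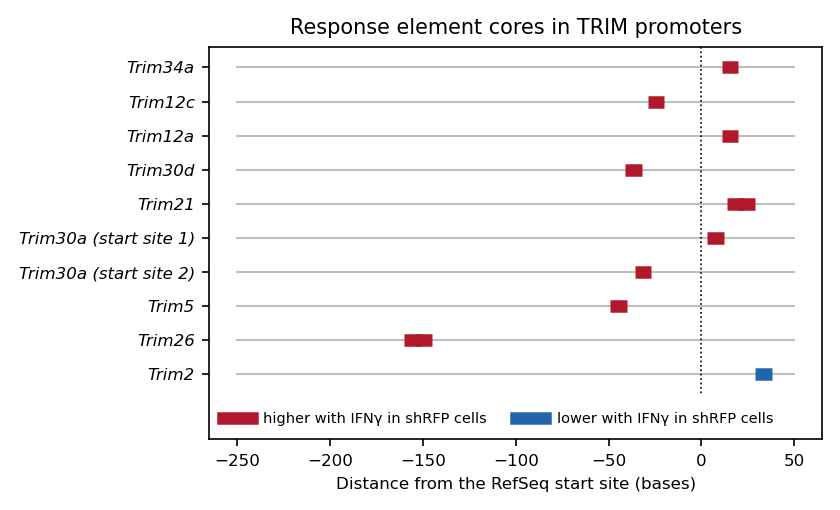
Positions of the interferon-stimulated response element core, on either strand, in TRIM promoters, in bases from the RefSeq start site (dotted line at 0); grey lines are the windows searched. Red marks members higher and blue the member lower with IFNγ in shRFP cells (adjusted p under 0.05), and in Trim26 the 2 cores lie farther upstream than in the other members.

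The libraries held 14337771 to 21548940 counts. Levels are in CPM, counts brought to a common library size with TMM factors, and a gene rose or fell where the adjusted p of edgeR's two-sided quasi-likelihood test was under 0.05, with no minimum fold. Sdc1 was lower in the knockdown by 1.77 ± 0.08 (log2, SE) with IFNγ and by 1.67 ± 0.08 without it. In shSdc1 replicate 3 a single gene, ENSMUSG00000119584, held 4.786% of counts, against 0.0842 to 0.1948% in the other libraries, so results that rest on that library are also given without it. The melanocyte markers Mlana, Pmel, Tyr, Tyrp1, Dct, Mitf and Sox10 were each above 1 CPM in every group. Their summed level was lower in the knockdown, at 11750 to 13170 CPM in shSdc1 with IFNγ, 16610 to 18170 in shRFP with IFNγ, 12940 to 13370 in shSdc1 and 17240 to 17290 in shRFP. TRIM genes together took 2112 to 2138 CPM, here without TMM scaling, in shSdc1 with IFNγ, 1947 to 2039 in shRFP with IFNγ, 1785 to 1905 in shSdc1 and 1893 to 1904 in shRFP. The lowest of these values, 1785, is that of shSdc1 replicate 3.

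Per length, on a TPM scale computed from exon length, the most abundant member in unstimulated shRFP cells was Trim28 at a mean level of 311. It was followed by Trim44 at 142, Trim35 at 129, Trim59 at 114 and Trim37 at 112. The antiviral members Trim34a, Trim12a, Trim30d and Trim5 were between 0.07 and 0.34 on that scale in the same cells. With IFNγ, Trim21 had a mean level of 67.2 in shSdc1 and 59.2 in shRFP cells on that scale, above Trim8, a regulator of cytokine signalling with 53.6 and 47.9. Trim12c had 32.5 and 14.6, well over its unstimulated levels of 0.93 in shSdc1 and 0.84 in shRFP cells.

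IFNγ in control cells, the comparison of shRFP with IFNγ and shRFP without it, asks which members the cytokine moves. Of the 44 members tested, 10 rose and 8 fell, or 40.9%, against 31.6% of all genes tested, of which 17.2% rose and 14.4% fell. A rise of 2-fold or more was seen in 8 members and a fall of that size in 1, against 2.92% and 1.12% of all genes. Among these 8, Trim34a, Trim30d, Trim5 and Trim12a entered the test only through libraries with IFNγ, so the contrast is a description. The 2 groups did not overlap for 23 members, and for 41.4% of all genes. The median log2 fold change was -0.00 for the members and -0.01 for all genes, so the large changes were those of a few members. In knockdown cells 11 rose and 3 fell with IFNγ, or 31.8%, against 30.5% of all genes, of which 17.5% rose and 13.0% fell. A rise of 2-fold or more was seen in 9 members and a fall of that size in 0, against 3.90% and 0.653% of all genes. Trim34a, Trim30d, Trim5 and Trim12a are among these 9 too, with the same limit. For 20 members the libraries with IFNγ did not overlap those without, and for 45.9% of all genes. The median was 0.12 for the members and 0.00 for all genes. Upper-quartile scaling moved the share of higher genes among all that passed to 38.5% with IFNγ in control cells, against 54.5% with TMM, and to 45.1% in knockdown cells, against 57.5%. With it 10 members rose and 12 fell in control cells, and 10 rose and 5 fell in knockdown cells.

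**Figure D2:**
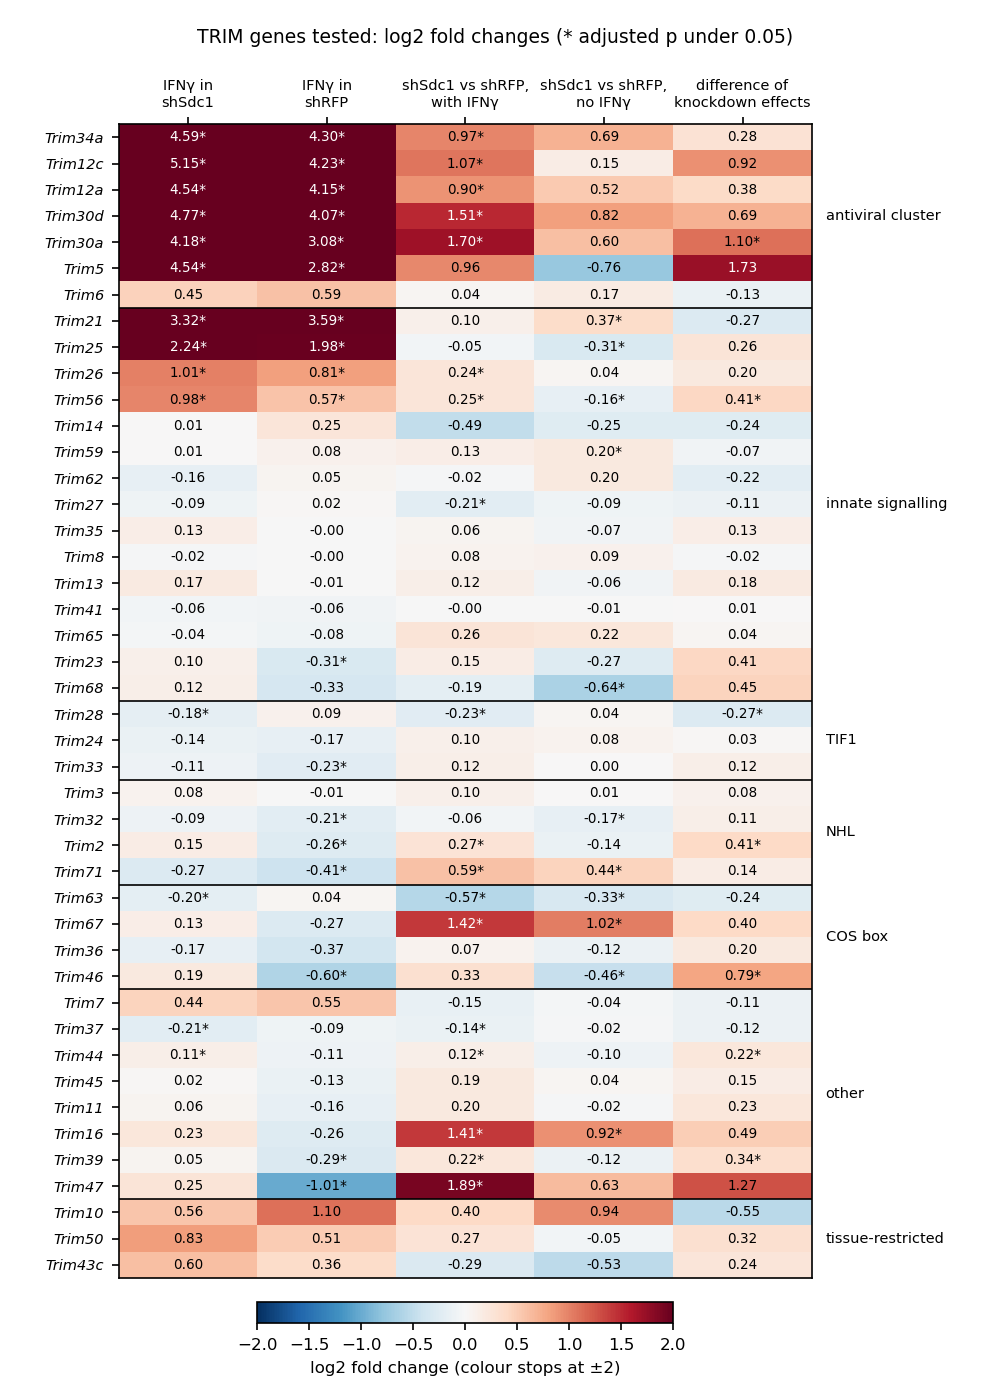
Log2 fold changes of the 44 TRIM genes tested (rows, by role) in the 5 comparisons (columns), with an asterisk where the adjusted p was under 0.05. The dark red cells at the upper left are those of Trim21, Trim25 and the members of the antiviral cluster other than Trim6, and most other cells lie near 0.

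The 4 largest responses in control cells were those of Trim34a, Trim12c, Trim12a and Trim30d in the antiviral cluster, the mouse relatives of human TRIM5, TRIM6, TRIM22 and TRIM34, which end in a PRYSPRY domain. In primates TRIM5 binds retroviral capsids. Of the 10 members of this cluster 7 were tested, and 6 of them rose with IFNγ in control cells and 6 in knockdown cells, the exception in both being Trim6. Their summed level was 97.3, 97.8 and 96.2 CPM in shSdc1 with IFNγ, 44.1, 38.2 and 45.1 CPM in shRFP with IFNγ, 4.37, 5.57 and 5.32 CPM in shSdc1, and 4.19, 3.56 and 3.80 CPM in shRFP. With IFNγ the groups were far apart. Without it they lay close, although the lowest shSdc1 library, at 4.37 CPM, was above the highest shRFP library, at 4.19 CPM.

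Trim12c (ENSMUSG00000057143) stood at 32.2, 33.6 and 33.5 CPM in shSdc1 with IFNγ, 15.7, 13.3 and 18.2 CPM in shRFP with IFNγ, 0.972, 1.06 and 0.733 CPM in shSdc1, and 0.684, 0.890 and 0.967 CPM in shRFP. The log2 response to IFNγ was 5.15 ± 0.16 (SE, adjusted p = 1.7e-15) in knockdown cells and 4.23 ± 0.17 (adjusted p = 2.0e-13) in control cells. Each library with IFNγ was above each library without it, and with IFNγ the knockdown libraries were above the control ones by 1.07 ± 0.10 (adjusted p = 1.4e-07). Without IFNγ the 2 groups overlapped.

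Trim12a had 15.4, 16.01 and 16.3 CPM in shSdc1 with IFNγ, 9.46, 8.54 and 7.40 CPM in shRFP with IFNγ, 0.365, 0.751 and 0.916 CPM in shSdc1, and 0.547, 0.356 and 0.484 CPM in shRFP. Its response was 4.54 ± 0.20 in knockdown and 4.15 ± 0.22 in control cells, and with IFNγ it was higher in the knockdown by 0.90 ± 0.13 (adjusted p = 3.3e-05). Trim12a and Trim12c are the closest mouse relatives of primate TRIM5 together with Trim5, and all 3 followed the same order of groups under IFNγ.

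Trim5 was the scarcest of the cluster that passed the filter. It had 1.18, 1.24 and 0.933 CPM in shSdc1 with IFNγ, 0.662, 0.561 and 0.493 CPM in shRFP with IFNγ, 0, 0 and 0.122 CPM in shSdc1, and 0.137, 0 and 0.0691 CPM in shRFP. In knockdown cells it rested on 57 counts with IFNγ and 2 without, a ratio of 27.5 with a 95% exact counting interval of 7.28 to 233. The response in control cells was 2.82 ± 0.67 (adjusted p = 0.0034). Between shSdc1 and shRFP with IFNγ the difference of 0.96 did not pass (adjusted p = 0.074), although the 2 groups did not overlap.

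Trim30a, which in mouse cells acts as a feedback brake on Toll-like receptor signalling by lowering TAB2 and TAB3, separated the groups most within the cluster. It stood at 32.9, 28.9 and 29.7 CPM in shSdc1 with IFNγ, 10.3, 7.91 and 10.0 CPM in shRFP with IFNγ, 1.46, 1.69 and 1.89 CPM in shSdc1, and 1.23, 1.13 and 0.898 CPM in shRFP. Each knockdown library was above each control library in both states. With IFNγ the difference was 1.70 ± 0.11 (adjusted p = 8.4e-10), and without it 0.60 ± 0.23, which did not pass (adjusted p = 0.054). The response to IFNγ was 4.18 ± 0.14 in knockdown and 3.08 ± 0.17 in control cells. The difference between these responses, 1.10 ± 0.26, passed (adjusted p = 0.012), and it ended without shRFP replicate 1 (0.98, adjusted p = 0.069).

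Trim30d had 4.89, 5.97 and 6.53 CPM in shSdc1 with IFNγ, 2.32, 1.25 and 2.54 CPM in shRFP with IFNγ, 0.182, 0.313 and 0.122 CPM in shSdc1, and 0.0912, 0.119 and 0.138 CPM in shRFP. It was higher in the knockdown with IFNγ by 1.51 ± 0.23 (adjusted p = 4.9e-05), and its response was 4.77 ± 0.34 in knockdown and 4.07 ± 0.44 in control cells. Trim34a, the relative of human TRIM34, had 8.86, 10.3 and 7.86 CPM in shSdc1 with IFNγ, 4.37, 5.05 and 4.37 CPM in shRFP with IFNγ, 0.304, 0.375 and 0.428 CPM in shSdc1, and 0.228, 0 and 0.484 CPM in shRFP. It was higher in the knockdown with IFNγ by 0.97 ± 0.20 (adjusted p = 9.5e-04). With IFNγ no knockdown library of either gene overlapped a control library.

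Trim6 alone among the tested members of the cluster did not pass in any comparison, with means of 1.62 and 1.60 CPM in shSdc1 and shRFP with IFNγ and 1.19 and 1.03 CPM without. The 3 members not tested were Trim34b with 2 and 3 counts over the libraries of shSdc1 and shRFP with IFNγ and 0 without, Trim30c with 3 counts in shSdc1 with IFNγ and 0 elsewhere, and Trim30b with 0. Trim34a, Trim30d, Trim5 and Trim12a reached the filter's minimum in too few unstimulated libraries and passed through those with IFNγ, as did Trim10, Trim43c and Trim50 outside the cluster, so the counts over tested members are a description. Near-identical copies limit the split between genes. Of the 100-base windows in Trim34a transcripts 38.98% were also found in other genes, 21% in Trim34b, and the share was 11.66% for Trim5, 8.05% for Trim12c, 4.57% for Trim30d, 4.41% for Trim30a and 3.29% for Trim12a.

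**Figure D3:**
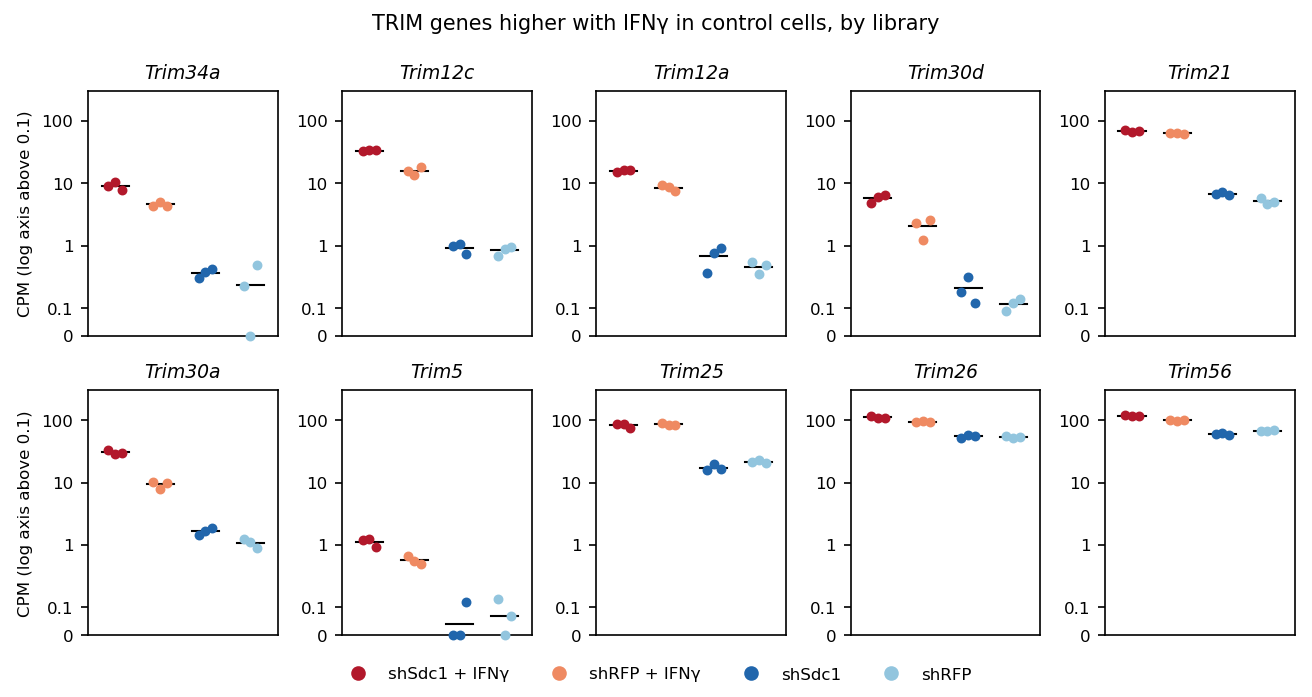
Levels in CPM (log axis above 0.1) of the 10 TRIM genes higher with IFNγ in control cells, 1 point per library and a bar at the mean of 3 libraries. Trim30a, Trim30d, Trim12a, Trim12c and Trim34a are higher in shSdc1 than in shRFP libraries with IFNγ, while Trim21 and Trim25 are close in both.

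Among ligases and adaptors of innate sensing, 15 of 19 were tested, and 4 rose and 1 fell with IFNγ in control cells, while 4 rose and 0 fell in knockdown cells. These are 33.3% and 26.7% of those tested, close to the 31.6% and 30.5% of all genes that passed. Trim21 (ENSMUSG00000030966), the cytosolic receptor for antibodies bound to incoming virus, led the group. It had 70.5, 65.8 and 67.6 CPM in shSdc1 with IFNγ, 64.8, 64.1 and 61.4 CPM in shRFP with IFNγ, 6.80, 7.13 and 6.41 CPM in shSdc1, and 5.88, 4.69 and 5.04 CPM in shRFP. The response was 3.32 ± 0.07 (adjusted p = 1.2e-17) in knockdown and 3.59 ± 0.08 (adjusted p = 6.8e-18) in control cells. With IFNγ the knockdown difference was 0.10 and did not pass (adjusted p = 0.19). Without IFNγ Trim21 was higher in the knockdown by 0.37 ± 0.10 (adjusted p = 0.010). That call ended without shSdc1 replicate 2 (0.33, adjusted p = 0.055) or shRFP replicate 2 (0.29, adjusted p = 0.086). It also ended in a fit of the 2 compared groups alone.

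Trim25, which places ubiquitin on the RNA sensor RIG-I, had 85.8, 85.6 and 74.4 CPM in shSdc1 with IFNγ, 89.3, 83.2 and 82.6 CPM in shRFP with IFNγ, 15.6, 20.1 and 16.3 CPM in shSdc1, and 21.2, 22.9 and 20.4 CPM in shRFP. It rose with IFNγ by 2.24 ± 0.08 in knockdown and 1.98 ± 0.08 in control cells. Without IFNγ it was lower in the knockdown by a log2 fold change of -0.31 ± 0.09 (adjusted p = 0.015). That call ended without shSdc1 replicate 1 (adjusted p = 0.091), shSdc1 replicate 3 (-0.26, adjusted p = 0.074) or shRFP replicate 2 (adjusted p = 0.069). With IFNγ the 2 hairpins gave overlapping levels.

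Trim26, linked to turnover of nuclear IRF3, had 116, 107 and 108 CPM in shSdc1 with IFNγ, 91.8, 96.1 and 93.0 CPM in shRFP with IFNγ, 52.2, 57.0 and 54.9 CPM in shSdc1, and 55.1, 51.6 and 53.1 CPM in shRFP. It rose by 1.01 ± 0.05 in knockdown and 0.81 ± 0.05 in control cells, and was higher in the knockdown with IFNγ by 0.24 ± 0.05 (adjusted p = 8.3e-04). Without IFNγ the groups overlapped.

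Trim56, which acts on the DNA sensor cGAS and the adaptor STING, was the 1 member that passed the knockdown test in both states with opposite signs. It had 122, 118 and 115 CPM in shSdc1 with IFNγ, 100, 97.4 and 101 CPM in shRFP with IFNγ, 59.8, 63.1 and 56.9 CPM in shSdc1, and 66.2, 66.7 and 68.5 CPM in shRFP. The knockdown was higher with IFNγ by 0.25 ± 0.05 (adjusted p = 3.8e-04) and lower without it, at -0.16 ± 0.05 (adjusted p = 0.017). The call without IFNγ ended without shSdc1 replicate 3 (-0.12, adjusted p = 0.11) or shRFP replicate 3 (-0.15, adjusted p = 0.058). The difference of 0.41 ± 0.07 (adjusted p = 0.0010) passed under all 19 alternatives run for it.

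Trim14, an adaptor at the mitochondrial protein MAVS that lacks a RING finger, was near the detection limit and passed in no comparison. It had 1.02, 1.00 and 1.399 CPM in shSdc1 with IFNγ, 1.39, 1.43 and 1.97 CPM in shRFP with IFNγ, 1.03, 0.626 and 1.71 CPM in shSdc1, and 0.821, 1.90 and 1.38 CPM in shRFP, and all groups overlapped. Of its transcript windows 29.91% also belong to other genes, most of them to Nans.

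Trim68, Trim59 and Trim23 of that group also passed in a comparison each. Trim68, a coactivator of the androgen receptor in human cells, was lower in the knockdown without IFNγ at -0.64 ± 0.18 (adjusted p = 0.011; -0.53 and 0.069 without shRFP replicate 1). Trim59, a membrane-anchored member, was higher at 0.20 ± 0.05 (adjusted p = 0.0048). Trim23, which carries a GTPase domain, fell with IFNγ in control cells by a log2 fold change of -0.31, which moved to -0.12 (adjusted p = 0.22) without shRFP with IFNγ replicate 2, the library in which it was lowest at 21.3 CPM. Its call also ended, at adjusted p of 0.050 to 0.10, without any 1 of the shSdc1 with IFNγ or shRFP libraries.

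Trim27 bears on the control itself, since an older name of the gene, Ret finger protein, has the letters RFP, and the labels do not spell out what RFP is. Trim27 was not lower in cells with the control hairpin. It had 57.8, 61.9 and 58.6 CPM in shSdc1 with IFNγ, 63.8, 64.4 and 77.8 CPM in shRFP with IFNγ, 59.8, 66.6 and 63.2 CPM in shSdc1, and 68.2, 64.4 and 69.7 CPM in shRFP. The difference was -0.09 without IFNγ and did not pass, and -0.21 ± 0.07 with it (adjusted p = 0.023). The call with IFNγ ended without shRFP with IFNγ replicate 3 (-0.12, adjusted p = 0.13) and without shSdc1 with IFNγ replicate 1 (adjusted p = 0.072) or 3 (adjusted p = 0.060). The other 6 tested members of the sensing group, Trim8, Trim13, Trim35, Trim41, Trim62 and Trim65, passed in no comparison, with log2 fold changes between -0.22 and 0.26.

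The knockdown was compared with its control in both states to ask which members differ when Sdc1 is lowered. With IFNγ 14 members were higher and 4 lower in shSdc1, or 40.9% of the 44, against 36.3% of all genes, of which 18.9% were higher and 17.4% lower. At least 2-fold higher were 6 members and at that fold lower 0, against 3.83% and 0.759% of all genes. Knockdown and control libraries did not overlap for 24 members, and for 44.9% of all genes. The median log2 fold change was 0.13 for the members and 0.02 for all genes. Without IFNγ 5 were higher and 6 lower, or 25%, against 28.6% of all genes, so the members' share was no larger than the background. At least 2-fold higher was 1, Trim67, and at that fold lower 0, against 2.30% and 1.14% of all genes. The libraries did not overlap for 18 members, and for 43.3% of all genes. Without shSdc1 replicate 3 the lower members numbered 2, and without shSdc1 replicate 1 they numbered 3, while without shRFP replicate 2 the higher members numbered 3. The antiviral cluster supplied 5 of the 14 members higher with IFNγ and 0 of the 5 higher without it, where all 7 of its tested members failed the test. Its median log2 fold change was 0.97 with IFNγ and 0.52 without it, where its members ran from -0.76 to 0.82. Several of these genes had few counts without IFNγ, so failing there does not show that they were unchanged.

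Outside the interferon-induced members, Trim47, Trim16 and Trim67 had the largest knockdown differences. Trim16, which lacks a RING finger and acts in the response to damaged lysosomes, had 10.3, 10.3 and 8.93 CPM in shSdc1 with IFNγ, 3.44, 3.49 and 4.23 CPM in shRFP with IFNγ, 8.32, 9.26 and 7.64 CPM in shSdc1, and 4.29, 4.15 and 4.98 CPM in shRFP. The knockdown was higher by 1.41 ± 0.14 with IFNγ (adjusted p = 2.5e-07) and by 0.92 ± 0.14 without it (adjusted p = 3.9e-05). Knockdown and control libraries did not overlap in either state, and IFNγ itself moved Trim16 past the test in neither.

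Trim67, a COS box ligase of neurons that acts with the netrin receptor DCC, had 2.47, 3.01 and 2.33 CPM in shSdc1 with IFNγ, 0.926, 0.935 and 1.06 CPM in shRFP with IFNγ, 2.01, 2.94 and 2.20 CPM in shSdc1, and 1.05, 1.25 and 1.24 CPM in shRFP. It was higher in the knockdown by 1.42 ± 0.25 with IFNγ (adjusted p = 1.8e-04) and by 1.02 ± 0.24 without it (adjusted p = 0.0030). As for Trim16, the groups were apart by hairpin and not by cytokine.

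Trim47 had 1.99, 2.89 and 2.33 CPM in shSdc1 with IFNγ, 0.595, 0.561 and 0.775 CPM in shRFP with IFNγ, 1.64, 2.50 and 1.89 CPM in shSdc1, and 1.55, 1.31 and 0.967 CPM in shRFP. With IFNγ it was higher in the knockdown by 1.89 ± 0.30 (adjusted p = 6.5e-05), the largest knockdown difference of any member that passed. Without IFNγ the difference of 0.63 did not pass (adjusted p = 0.087). In control cells it was lower with IFNγ, at -1.01 ± 0.33 (adjusted p = 0.023). That call ended without shRFP replicate 1 (-0.83, adjusted p = 0.12) or 2 (adjusted p = 0.055), or without shRFP with IFNγ replicate 1 (adjusted p = 0.066) or 2 (adjusted p = 0.087). The difference between its knockdown effects, 1.27 ± 0.41, did not pass (adjusted p = 0.056).

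**Figure D4:**
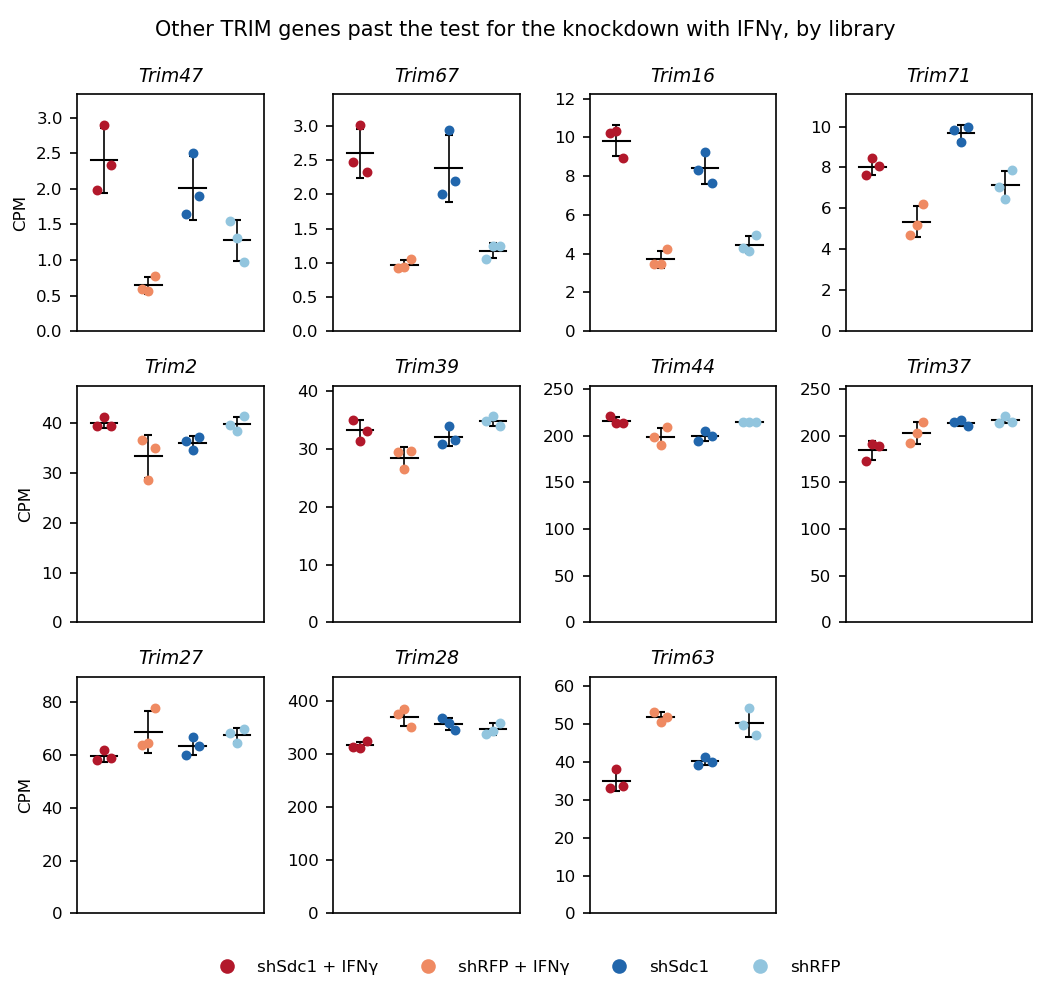
Levels in CPM, on axes from 0, of the 11 TRIM genes past the test for the knockdown with IFNγ that were not induced by IFNγ in control cells, with 1 point per library and the mean ± SD of 3 libraries. Trim47, Trim67 and Trim16 are higher and Trim63 lower in shSdc1 than in shRFP libraries with IFNγ.

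Of the COS box ligases, which bind microtubules, 4 of 7 were tested. Trim63, the muscle ligase MuRF1 that marks myosin for turnover in atrophy, was the member most clearly lower in the knockdown. It had 33.2, 38.2 and 33.7 CPM in shSdc1 with IFNγ, 53.3, 50.7 and 51.9 CPM in shRFP with IFNγ, 39.2, 41.4 and 40.1 CPM in shSdc1, and 49.8, 54.4 and 47.1 CPM in shRFP. The log2 fold change was -0.57 ± 0.07 with IFNγ (adjusted p = 1.5e-06) and -0.33 ± 0.06 without it (adjusted p = 7.0e-04), with no overlap in either state. It also fell slightly with IFNγ in knockdown cells, at -0.20 ± 0.07 (adjusted p = 0.027). That call ended without shSdc1 with IFNγ replicate 1 (adjusted p = 0.12) or 3 (adjusted p = 0.090), or shSdc1 replicate 2 (adjusted p = 0.091) or 3 (adjusted p = 0.054). Of 9 muscle markers 5 were at 0 in each group, and Myod1, Myog, Myh4 and Myh7 had no count in any library. Their summed level, mostly Des, was 9.66 to 12.9 CPM in shSdc1 with IFNγ, 5.17 to 7.47 in shRFP with IFNγ, 6.07 to 7.72 in shSdc1 and 4.77 to 5.06 in shRFP, so it was higher in the knockdown libraries where Trim63 was lower. The part of this in the result was not tested.

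Trim46, which organises microtubules at the axon initial segment, had 5.58, 4.96 and 4.80 CPM in shSdc1 with IFNγ, 3.97, 3.49 and 4.86 CPM in shRFP with IFNγ, 4.68, 5.32 and 3.48 CPM in shSdc1, and 5.65, 6.88 and 6.08 CPM in shRFP. In control cells it was lower with IFNγ, at -0.60 ± 0.17 (adjusted p = 0.012), which ended without shRFP with IFNγ replicate 2 (adjusted p = 0.065) or shRFP replicate 2 (adjusted p = 0.059). Without IFNγ it was lower in the knockdown, at -0.46 ± 0.17 (adjusted p = 0.046), and the difference between the knockdown effects was 0.79 ± 0.24 (adjusted p = 0.048). Both sit at the threshold: without shSdc1 replicate 3 they were -0.31 (adjusted p = 0.22) and 0.62 (adjusted p = 0.11), and the first ended in 8 and the second in 10 of the 12 fits that left out 1 library. Without shRFP with IFNγ replicate 2 or 3, or shSdc1 replicate 2 or shRFP replicate 1, the first held, and without shRFP with IFNγ replicate 3 or shSdc1 replicate 2 the second did. Both also ended with the Wald test of DESeq2 and with replicate number as a block. Trim36, the other tested member, passed in no comparison.

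All 4 NHL repeat ligases, which bind RNA or protein through a propeller-shaped C-terminal domain, were tested. Trim71, the stem-cell ligase LIN41 and a target of let-7 microRNAs, had 7.62, 8.45 and 8.06 CPM in shSdc1 with IFNγ, 4.70, 5.17 and 6.20 CPM in shRFP with IFNγ, 9.84, 9.26 and 9.96 CPM in shSdc1, and 7.07, 6.47 and 7.88 CPM in shRFP. It was higher in the knockdown by 0.59 ± 0.13 with IFNγ (adjusted p = 0.0017) and by 0.44 ± 0.12 without it (adjusted p = 0.010; 0.38 and 0.052 without shRFP replicate 2). Knockdown and control did not overlap in either state. With IFNγ in control cells it was lower, at -0.41 ± 0.13 (adjusted p = 0.023). That call ended without shRFP with IFNγ replicate 1 (-0.33, adjusted p = 0.10) or 2 (adjusted p = 0.075), or shRFP replicate 1 (adjusted p = 0.054) or 3 (adjusted p = 0.082). A fit of the 2 compared groups alone lost it too.

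Trim2, a ligase of neurons, had 39.6, 41.3 and 39.4 CPM in shSdc1 with IFNγ, 36.7, 28.5 and 35.01 CPM in shRFP with IFNγ, 36.5, 34.6 and 37.3 CPM in shSdc1, and 39.7, 38.4 and 41.4 CPM in shRFP. It was higher in the knockdown with IFNγ by 0.27 ± 0.07 (adjusted p = 0.0093) and lower with IFNγ in control cells, at -0.26 ± 0.07 (adjusted p = 0.014). Both rest on shRFP with IFNγ replicate 2, the lowest library, without which they were 0.15 (adjusted p = 0.075) and -0.15 (adjusted p = 0.095). The difference between the knockdown effects was 0.41 ± 0.11 (adjusted p = 0.021), and it ended without shSdc1 with IFNγ replicate 2 (0.38, adjusted p = 0.058) or shSdc1 replicate 2 (0.37, adjusted p = 0.055). Trim32, a ligase mutated in a limb-girdle muscular dystrophy, fell with IFNγ in control cells by -0.21 ± 0.05 (log2; adjusted p = 0.0064). Without IFNγ it was lower in the knockdown, at a log2 fold change of -0.17 ± 0.05 (adjusted p = 0.024). That call ended without shSdc1 replicate 1 (adjusted p = 0.051), shSdc1 replicate 3 (adjusted p = 0.13) or shRFP replicate 1 (adjusted p = 0.097). It also ended with the Wald test of DESeq2 and with no filter on low counts. Trim3 passed in no comparison.

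Of the 4 TIF1 proteins, chromatin regulators with a PHD finger and bromodomain, 3 were tested. Trim28, also called KAP1, is the corepressor that KRAB zinc-finger proteins bring to endogenous retroviruses. It had 314, 311 and 323 CPM in shSdc1 with IFNγ, 375, 384 and 351 CPM in shRFP with IFNγ, 368, 358 and 345 CPM in shSdc1, and 338, 344 and 359 CPM in shRFP. The shSdc1 libraries with IFNγ were below each of the other 9. The log2 fold change was -0.23 ± 0.04 for the knockdown with IFNγ (adjusted p = 2.9e-04) and -0.18 ± 0.04 for IFNγ in knockdown cells (adjusted p = 0.0033), while the knockdown difference without IFNγ was 0.04. The difference between the knockdown effects, -0.27 ± 0.06 (adjusted p = 0.0081), passed under all 19 alternatives run.

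Trim33, a regulator of SMAD4 in TGF-beta signalling, had 95.7, 99.9 and 105 CPM in shSdc1 with IFNγ, 93.6, 84.4 and 97.4 CPM in shRFP with IFNγ, 107, 110 and 107 CPM in shSdc1, and 107, 110 and 107 CPM in shRFP. It fell with IFNγ in control cells at a log2 fold change of -0.23 ± 0.05 (adjusted p = 0.0022), and the 2 hairpins gave the same range without IFNγ. Trim24, a reader of histone H3 and coregulator of nuclear receptors, had 42.1, 46.3 and 47.9 CPM in shSdc1 with IFNγ, 40.4, 42.2 and 44.2 CPM in shRFP with IFNγ, 50.4, 52.2 and 47.3 CPM in shSdc1, and 48.9, 48.0 and 45.1 CPM in shRFP. It passed in no comparison, although the libraries with IFNγ in control cells were all under those without (-0.17, adjusted p = 0.0503). The fourth member, Trim66, was not tested, with 6 and 12 counts over the libraries of shSdc1 and shRFP with IFNγ and 4 and 3 without.

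Of the 6 partners of Trim28 in heterochromatin, the HP1 genes Cbx1 and Cbx5 and the remodeller gene Chd3 were lower in the knockdown in both states, and 0 partners were higher without IFNγ. Of all genes tested 17.4% were lower in the knockdown with IFNγ and 14.6% without it. The log2 fold changes with IFNγ were -0.23 for Cbx1, -0.25 for Cbx5 and -0.17 for Chd3, and without it -0.25, -0.29 and -0.27. The median over the 6 was -0.09 with IFNγ, against 0.02 for all genes, and -0.16 without it, against 0. With IFNγ 1 partner, Atf7ip, which stabilises the methyltransferase SETDB1, was higher by 0.15.

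Of 9 other ligases 8 were tested. Trim39, which restrains the anaphase-promoting complex, had 35.1, 31.5 and 33.2 CPM in shSdc1 with IFNγ, 29.4, 26.5 and 29.7 CPM in shRFP with IFNγ, 30.9, 34.0 and 31.6 CPM in shSdc1, and 34.9, 35.7 and 34.1 CPM in shRFP. It was lower with IFNγ in control cells, at -0.29 ± 0.07 (adjusted p = 0.0021), and with IFNγ it was higher in the knockdown by 0.22 ± 0.07 (adjusted p = 0.012). The second of these ended without shSdc1 with IFNγ replicate 1 (adjusted p = 0.073) or shRFP with IFNγ replicate 2 (adjusted p = 0.086). The difference between the knockdown effects was 0.34 ± 0.09 (adjusted p = 0.025), and it ended, at adjusted p of 0.056 to 0.077, without shSdc1 with IFNγ replicate 1, shRFP with IFNγ replicate 2, shSdc1 replicate 1 or 3, or shRFP replicate 1 or 2.

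Trim44, which has a zinc finger like that of ubiquitin proteases in place of the RING, had 221, 214 and 214 CPM in shSdc1 with IFNγ, 198, 190 and 209 CPM in shRFP with IFNγ, 194, 205 and 200 CPM in shSdc1, and 215, 214 and 214 CPM in shRFP. Its knockdown difference was 0.12 ± 0.04 with IFNγ (adjusted p = 0.033), its response in knockdown cells 0.11 ± 0.04 (adjusted p = 0.047), and the difference between knockdown effects 0.22 ± 0.06 (adjusted p = 0.024). Within its comparison each is the smallest change of a member that passed. The first was lost under 11 of 20 alternatives, the response under 16 of 20 and the last under 8 of 19. For the response these included DESeq2 size factors, upper-quartile scaling, the Wald test of DESeq2, no filter and a replicate block. In that order, the calls ended in 8, 10 and 7 of the 12 fits that left out 1 library. The lowest values were 0.08 (adjusted p = 0.20) and 0.18 (adjusted p = 0.067) for the first and last, without shRFP with IFNγ replicate 2, and 0.09 (adjusted p = 0.19) for the response, without shSdc1 replicate 1. Trim37, a ligase that limits centriole numbers, was lower with IFNγ in knockdown cells by -0.21 ± 0.05 (log2; adjusted p = 0.0023) and lower in the knockdown with IFNγ by -0.14 ± 0.05 (log2; adjusted p = 0.030). The second of these ended without shSdc1 with IFNγ replicate 1 (-0.10, adjusted p = 0.15) or shRFP with IFNγ replicate 3 (adjusted p = 0.11). It also ended in a fit of the 2 compared groups alone. Trim7, Trim11 and Trim45 passed in no comparison.

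The tissue-restricted ligases of blood, germ line, embryo and muscle were barely detected, with 3 of 13 tested and none of Trim10, Trim43c and Trim50 past the test. Their summed level was 3.22 to 3.66 CPM in shSdc1 with IFNγ, 2.40 to 2.65 in shRFP with IFNγ, 1.76 to 2.02 in shSdc1 and 1.54 to 1.87 in shRFP. Trim15 had 30 and 10 counts over the libraries of shSdc1 and shRFP with IFNγ and 6 and 5 without, and Trim69 had 24 and 6 with IFNγ and 3 and 2 without. In a fit with no filter on low counts both rose with IFNγ in knockdown cells, by 2.18 ± 0.74 for Trim15 (adjusted p = 0.023) and 2.79 ± 0.93 for Trim69 (adjusted p = 0.021). For Trim69 the ratio of counts was 7.72, with a 95% exact counting interval of 2.35 to 40.1. The other untested members with 10 or more counts over all libraries were Trim17, Trim9, Trim75, Trim72, Trim43a and Trim38 besides Trim66, at 14 to 76 counts. Trim29, Trim40, Trim43b, Trim55, Trim60 and Trim80 had 1 to 3 counts, and Trim31, Trim42, Trim52, Trim54, Trim58 and Trim61 had 0, which allows up to 3 counts in all.

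**Figure D5:**
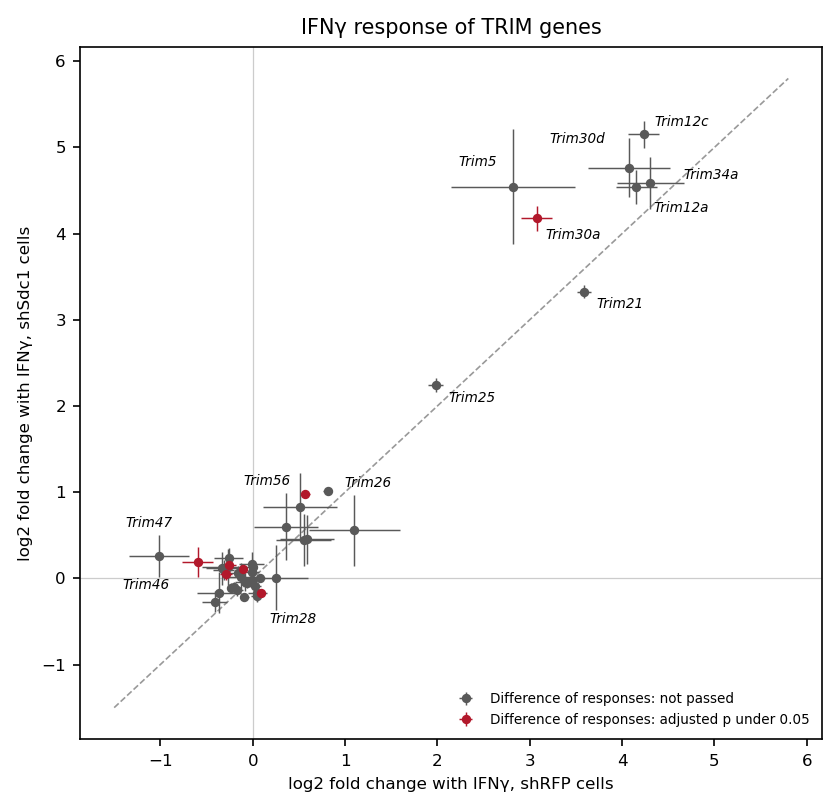
Log2 fold change with IFNγ in shSdc1 cells (vertical axis) against that in shRFP cells (horizontal axis) for the 44 TRIM genes tested, with bars of 1 SE and a dashed line where both are equal. Red points passed the test of the difference (7 genes), of which Trim30a lies above the line at 4.18 against 3.08.

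The difference between the knockdown effects in the 2 states equals the difference between the IFNγ responses of shSdc1 and shRFP cells. It passed for 7 members, 6 positive and 1 negative, or 15.9%, against 9.73% of all genes, with 4.58% positive and 5.15% negative. The median was 0.19 for the members and 0.02 for all genes. The 7 are Trim30a, Trim46, Trim56, Trim2, Trim39 and Trim44, which were positive, and Trim28. The positive ones numbered 3 without any 1 of shSdc1 with IFNγ replicate 1 or 2, shRFP with IFNγ replicate 2, shSdc1 replicate 1 or 3, or shRFP replicate 2, and 2 without shRFP replicate 1. Of the cluster's other members Trim12c came closest, at 0.92 ± 0.30 (adjusted p = 0.062). So for Trim12a, Trim12c, Trim30d and Trim34a the larger knockdown difference seen with IFNγ was not shown to differ from that without it.

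Proteins that TRIM ligases act on were followed in a list of 16 sensors, adaptors and kinases. With IFNγ in control cells 9 of them rose and 0 fell, against 17.2% and 14.4% of all genes, with a median of 0.23 against -0.01 for all genes. The RNA sensor genes Ddx58 (RIG-I) and Ifih1 (MDA5) rose by 3.46 and 3.19, the transcription factor gene Irf7 by 4.69, and Rnf135, a ligase for RIG-I, by 1.91 on the log2 scale. In the knockdown with IFNγ 7 were higher and 1, Irf3, lower, against 18.9% and 17.4% of all genes. Without IFNγ 6 were higher and 2 lower, where 28.6% of all genes passed in either direction. Ddx58 averaged 186 CPM in shSdc1 with IFNγ, 125 in shRFP with IFNγ, 16.9 in shSdc1 and 11.4 in shRFP, a knockdown difference of 0.57 ± 0.05 with IFNγ and 0.57 ± 0.07 without it. The difference between these knockdown effects was -0.00 ± 0.08 (adjusted p = 0.99), while that of Trim30a was 1.10. Of the 16 listed genes 2 passed the test of that difference and 14 did not, where 9.73% of all genes passed. The 2 were Ikbke, at 0.65 ± 0.14 (adjusted p = 0.0058), and Rnf135, at 0.34 ± 0.10 (adjusted p = 0.045). Ifih1 was higher by 0.69 with and 0.64 without IFNγ, and Irf7 by 0.88 with IFNγ, while its difference of 1.104 without IFNγ did not pass (adjusted p = 0.052). The DNA sensor gene Cgas, the kinase genes Tbk1 and Map3k7 and the antiviral gene Zc3hav1 were higher in both states, by 0.12 to 0.28. Ikbke, a kinase of the same pathway, was lower in the knockdown without IFNγ, at -0.53, and Rnf135 was lower at -0.27.

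Ligases need ubiquitin-conjugating enzymes, and of 10 listed as partners of TRIM ligases Ube2l6 was the one with a large response. It is the conjugating enzyme for the ubiquitin-like protein ISG15, which human TRIM25 can attach. It had 172, 174 and 166 CPM in shSdc1 with IFNγ, 183, 182 and 178 CPM in shRFP with IFNγ, 9.84, 7.26 and 8.74 CPM in shSdc1, and 11.6, 9.37 and 10.9 CPM in shRFP. It rose with IFNγ by 4.31 ± 0.08 in knockdown and 4.08 ± 0.08 in control cells, and like Trim25 it was lower in the knockdown without IFNγ (-0.31 ± 0.10, adjusted p = 0.023). Of the other conjugating enzymes Ube2l3 rose with IFNγ in control cells, by 0.17, and none moved past the test with IFNγ in knockdown cells.

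Of 4 tripartite motif genes with other names, 3 were tested, and with IFNγ in control cells 1 rose and 1 fell, with a median of -0.52. Pml, the scaffold of nuclear bodies, averaged 181 CPM in shSdc1 with IFNγ, 143 in shRFP with IFNγ, 81.98 in shSdc1 and 75.8 in shRFP. Pml rose with IFNγ by 1.14 ± 0.05 in knockdown and 0.91 ± 0.05 in control cells and was higher in the knockdown with IFNγ by 0.34 ± 0.05 (adjusted p = 1.4e-05). Its knockdown difference without IFNγ was 0.11 and did not pass (adjusted p = 0.097), and the difference of its knockdown effects was 0.23 ± 0.07 (adjusted p = 0.042). Mid2, a microtubule-binding ligase, fell with IFNγ in control cells by a log2 fold change of -0.52 ± 0.08 (adjusted p = 3.3e-05) and was higher in the knockdown with IFNγ by 0.22 ± 0.08 (adjusted p = 0.031), with a difference of knockdown effects of 0.36 ± 0.11 (adjusted p = 0.042). Its relative Mid1 was lower with IFNγ in knockdown cells, at -1.14 ± 0.41 (adjusted p = 0.041). Mefv, the pyrin gene of myeloid cells, had no count in any library.

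Other cells cannot be seen directly in these bulk libraries, where more cells of a type and more RNA per cell cannot be told apart. Of 11 leukocyte markers 5, 8, 6 and 7 were at 0 in shSdc1 with IFNγ, shRFP with IFNγ, shSdc1 and shRFP. The pan-leukocyte gene Ptprc had 1 count in all, and Cd3e, Adgre1 and Itgax had 0. The list's summed level was 16.01 to 17.5 CPM in shSdc1 with IFNγ, 6.73 to 9.02 in shRFP with IFNγ, 8.57 to 9.195 in shSdc1 and 3.11 to 3.44 in shRFP, most of it Cd68. Like the sum of the antiviral cluster, it was higher in the knockdown and with IFNγ. The order of the groups differed. For the list unstimulated shSdc1 overlapped shRFP with IFNγ, while for the cluster it was far lower, at 4.37 to 5.57 against 38.2 to 45.1 CPM.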

How the data were processed

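The deposited values are raw counts, whole numbers for each gene, which the authors made from paired-end reads of an mRNA library. Per the submitters' processing notes the tools were Trimmomatic, HTSeq and HISAT2 2.0.5, with GRCm39 as the genome build. What each did, which gene models were counted and whether strand was used is not given in the sources used here. For symbols, exon lengths and transcripts the source was GENCODE M21 (GRCm38), and symbols matched 52135 of 56093 entries.

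Counts were scaled by TMM and filtered with filterByExpr (minimum count 10, minimum total 15). All 12 libraries entered a quasi-likelihood fit of edgeR 4.0.16 (R 4.3.3), each group having 1 coefficient and 8 residual degrees of freedom being left. P-values were adjusted over 14089 genes by Benjamini-Hochberg at 0.05. The SE is the log2 fold change over the square root of F. The prior count was 0.125, and exact intervals cover counting error only. Libraries of a group differed by more than sampling noise, so none was merged. The edgeR fit was tested on simulated counts with changes placed in the shSdc1 libraries. Genes of few counts were given no change there, and the difference of knockdown effects was not checked.

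The members, lists and tests were chosen with earlier results of these data known. Values per library are given for members that passed at 2-fold or more in a comparison of 2 groups, for those that passed in the difference of knockdown effects and for 9 chosen members; others were added where a result turned on them. Alternatives were limma-voom (limma 3.58.1), the Wald test of DESeq2 1.42.0, DESeq2 size factors, upper-quartile scaling, no filter, the compared groups alone, a replicate block, a fit without the assembled loci and ENSMUSG00000119584, and leaving out each library. Figures used matplotlib 3.10.9.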

Additional observations from a re-analysis of the deposited data

Results flagged for a closer look

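For 7 members the knockdown effect differed between cells with and without IFNγ, by the test of the difference itself. The difference, with IFNγ minus without, was 1.10 for Trim30a, 0.79 for Trim46, 0.41 for Trim56, 0.41 for Trim2, 0.34 for Trim39 and 0.22 for Trim44 on the log2 scale, and -0.27 for Trim28. Those of Trim56 and Trim28 passed under all 19 alternatives run, that of Trim30a under 18, Trim2 under 17, Trim39 under 13, Trim44 under 11 and Trim46 under 7.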

How the results depend on the processing

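Of 68 member calls in the 5 comparisons, 44 were kept under every alternative that gave a value for them, 24 were lost under at least 1, and 0 changed sign. The alternatives numbered 20, and 19 for the difference of knockdown effects. For the response of Trim5 in control cells they also numbered 19. IFNγ-lower members in knockdown cells numbered 5 with upper-quartile scaling and 5 with the compared groups alone, against 3.

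With 1 library left out, members higher in the knockdown without IFNγ numbered 3 to 6 (5 in the full fit) and lower ones 2 to 8 (6). With IFNγ they numbered 11 to 16 (14) and 2 to 4 (4). Members higher with IFNγ numbered 10 to 11 (10) in control cells and 10 to 11 (11) in knockdown cells, and lower ones 3 to 12 (8) and 2 to 4 (3). In the difference of knockdown effects they numbered 2 to 9 (6) and 1 to 2 (1). Libraries behind some of the low counts are named in the report. In addition, 2 were lower in the knockdown with IFNγ without shSdc1 with IFNγ replicate 1 or shRFP with IFNγ replicate 3. The members lower with IFNγ in control cells numbered 3 without shRFP with IFNγ replicate 2 and 5 without shRFP replicate 1 or 2. Not named are the libraries behind the low of 11 higher in the knockdown with IFNγ, and behind the lows with IFNγ in knockdown cells. Without shSdc1 with IFNγ replicate 2, 2 differences of knockdown effects were negative. Without shSdc1 replicate 3 the fitted response of Trim5 in knockdown cells was 7.22, since no count is left, against 4.54.

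Same-numbered libraries did not deviate together (correlations of -0.117 to 0.069), so the numbers were not taken as pairs. With the replicate block 5 members were higher and 5 lower in the knockdown without IFNγ, 13 and 4 with it, 10 and 8 moved with IFNγ in control cells, 10 and 3 in knockdown cells, and 5 and 1 in the difference.

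Sign changes were seen in values that did not pass. In the knockdown without IFNγ Trim33 was -0.0016 without the assembled loci and ENSMUSG00000119584. Trim14 with IFNγ in knockdown cells was -0.0336 with upper-quartile scaling and -0.0012 with the compared groups alone, and the difference of knockdown effects of Trim34a was -0.3828 with limma-voom. With 1 library left out, the knockdown effect without IFNγ ran between -0.0083 and 0.2974 for Trim12c, -0.6781 and 0.0791 for Trim14, -0.0118 and 0.0143 for Trim33 and -3.4425 and 0.2918 for Trim5. With IFNγ that of Trim25 ran between -0.0919 and 0.0079. The response of Trim14 ran between -0.0517 and 0.5798 in control and -0.2762 and 0.4337 in knockdown cells. The difference of knockdown effects ran between -0.5728 and 0.1789 for Trim14, -0.026 and 0.0744 for Trim24 and -0.498 and 0.8171 for Trim34a.

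Depth limits the scarce members: Trim5 and Trim30d rest on at most 10 counts per unstimulated group, and 24 members were not tested. The cause of lost calls was not tested.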
